A study of Homo sapiens with 12 samples.

Results

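Histone H3.1 enriched regions of untreated mammary cells were compared with those found 24 h after D-alanine. Chromatin immunoprecipitation followed by sequencing (ChIP-seq) had been done in MCF10AER/vSrc, derived from the established human breast epithelial line MCF10A, which does not form tumours, and carrying v-Src in a fusion with part of the estrogen receptor. All cells were of genotype WT and grew in the same medium with charcoal stripped serum, EGF, insulin, hydrocortisone and cholera toxin; the treated cells had also received D-alanine, which per the series' design raises reactive oxygen species (ROS) in nuclei. Its dose is labelled 10 nM, which was not checked against another source, and the design text names the target as H3.1/H3.2. The series held 12 samples, 6 ChIP libraries and 6 inputs, with 1 ChIP library and 1 input for each condition of each histone. Regions on chromosomes 1 to 22 and X were used, 44966 from the control list and 13611 from the 24 h list, together 58577 of the 161322 in all 6 lists. A control region was called kept if a 24 h region shared at least 1 bp with it and lost if none did, and a 24 h region was called gained if it met no control region. These words describe what was called in each list: a region missing from a list was not called there, which is no evidence that it lacked the histone. With 1 library a side there is no estimate of the spread between cultures, so every difference is a description of these libraries and no test between conditions was made.

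H3.1 and H3.2 are the replication-dependent H3 proteins, placed on new DNA in S phase by the chaperone CAF-1. H3.3 differs from them at a few residues and is placed outside replication by HIRA, at active genes and regulatory sites, and by DAXX with ATRX, at telomeres and repeats. Most of the genome carries H3.1 at some level, so an H3.1 region in ChIP-seq marks a stretch where recovered DNA exceeds the input and the surroundings, not the only places where the histone sits. Gene activity was not measured in these libraries, so the epithelial label of the line could not be checked from them.

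The libraries had similar depth, with 18656173 ChIP tags in control and 16837079 at 24 h, and the share of tags inside regions was 4.74% and 1.59%. The 24 h library had the deeper input, about 18100000 tags against 15800000. The H3.1 control regions were met most often by the list of H3.3 at 24 h, which is also the longest of the series with 81370 regions, while H3.1 at 4 h had 7922, H3.3 of control cells 9839 and H3.3 at 4 h 3614. A longer list meets more regions by its length, and the shares were not adjusted for it. H3.3 at 24 h met 34.1% of the lost and 18.8% of the kept regions (173 of 919), whereas each of the 3 remaining lists met at most 1.46% of the lost and at most 4.13% of the kept ones. Gained regions were met most often by H3.3 of control cells, at 6.15%, against 3.45% by H3.3 at 24 h. Whether library labels were exchanged was not tested, and an exchange would change what kept, lost and gained mean. All results below rest on 1 control library, and no value without it can be given.

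Gene starts that the 2 lists covered differed in base composition, so example promoters are printed first, from 250 bases before to 50 bases after a RefSeq gene start (GRCh38.p14, the reference build of hg38), 5′ to 3′ on the gene's strand, with every CpG in capitals. They were picked after their values were seen, among the highest scores of each class. The first pair lay in a region at 24 h only. ACAD10, an acyl-CoA dehydrogenase, has its promoter at chr12:111685803-111686102 on the plus strand with 38 CpGs. ALS2CL has its promoter at chr3:46693630-46693929 on the minus strand with 32 CpGs.
ACAD10: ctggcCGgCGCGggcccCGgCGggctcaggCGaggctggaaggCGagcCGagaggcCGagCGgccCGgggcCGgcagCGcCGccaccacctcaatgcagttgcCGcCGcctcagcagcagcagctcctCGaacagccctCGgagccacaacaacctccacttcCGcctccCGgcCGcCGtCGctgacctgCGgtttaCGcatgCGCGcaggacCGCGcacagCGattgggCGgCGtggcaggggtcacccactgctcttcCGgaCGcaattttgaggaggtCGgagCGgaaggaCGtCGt
ALS2CL: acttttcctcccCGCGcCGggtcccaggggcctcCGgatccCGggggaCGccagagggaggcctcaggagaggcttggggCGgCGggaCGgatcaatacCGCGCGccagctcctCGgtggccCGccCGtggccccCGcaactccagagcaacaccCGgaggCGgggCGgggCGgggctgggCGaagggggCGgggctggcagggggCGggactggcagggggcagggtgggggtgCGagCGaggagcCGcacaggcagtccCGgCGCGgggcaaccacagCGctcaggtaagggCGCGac
The second pair lay in a region of control cells only. MYBPH, a muscle myosin-binding protein, has its promoter at chr1:203175777-203176076 on the minus strand with 5 CpGs. MYL7, an atrial myosin light chain, has its promoter at chr7:44141283-44141582 on the minus strand with 3 CpGs. AQP2, the vasopressin-regulated water channel of the kidney, was 1 of 7 genes whose promoter met a region in both lists; it lies at chr12:49950487-49950786 on the plus strand with 11 CpGs.
MYBPH: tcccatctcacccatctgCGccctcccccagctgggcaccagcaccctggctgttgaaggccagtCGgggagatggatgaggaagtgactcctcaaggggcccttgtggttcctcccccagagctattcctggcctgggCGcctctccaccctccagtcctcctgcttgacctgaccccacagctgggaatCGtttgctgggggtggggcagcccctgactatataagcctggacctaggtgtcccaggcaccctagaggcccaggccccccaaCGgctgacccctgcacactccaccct
MYL7: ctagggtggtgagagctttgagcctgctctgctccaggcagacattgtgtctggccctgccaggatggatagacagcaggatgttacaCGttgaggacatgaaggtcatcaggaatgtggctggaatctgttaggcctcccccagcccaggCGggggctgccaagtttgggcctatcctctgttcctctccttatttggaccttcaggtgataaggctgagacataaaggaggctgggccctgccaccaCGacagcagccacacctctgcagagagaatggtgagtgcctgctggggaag
AQP2: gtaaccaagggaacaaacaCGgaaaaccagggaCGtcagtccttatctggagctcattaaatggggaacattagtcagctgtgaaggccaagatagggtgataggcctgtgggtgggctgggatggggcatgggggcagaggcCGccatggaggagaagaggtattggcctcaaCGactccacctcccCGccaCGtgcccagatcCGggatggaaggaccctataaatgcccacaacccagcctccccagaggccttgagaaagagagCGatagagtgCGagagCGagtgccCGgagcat
Capitals are dense through both 24 h promoters and few in the control ones. The region at ACAD10 (chr12:111685760-111686260) had 26.7 normalised tags, which are ChIP tags per 10000000 tags of its library, and a fold over input at equal depth of 4.04, with an exact 95% interval of 2.1 to 8.38. It also reached the promoter of BRAP on the other strand. The region at ALS2CL (chr3:46693708-46694208) had 27.3 normalised tags at a fold of 4.13 (2.15 to 8.55) and also reached the promoter of TMIE. At MYBPH the control region (chr1:203175896-203176654) had 27.9 normalised tags and a fold of 4.9 (2.39 to 11.3). At MYL7 (chr7:44140964-44141607) these were 21.4 tags and 4.24 (1.96 to 10.5). At AQP2 the control region had 11.8 tags and the 24 h region 26.1, at folds of 9.32 (2.29 to 81.7) and 5.92 (2.76 to 14.6). The intervals cover counting error only, and at AQP2 those of the folds overlap.

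Over 15812 genes with a RefSeq promoter, the control list met 392 promoters (2.48%) and the 24 h list 409 (2.59%), although the control list was the longer one. Of these promoters 7 were in both, 385 were in the control list only and 402 in the 24 h list only. The 7 of 392 control promoters also met at 24 h stand beside the 2.59% of all promoters met at 24 h, so little overlap is no result about these promoters. Promoters met at 24 h only had a median GC content of 68% and 26 CpGs, against 57.7% and 7 CpGs for control only and 62.7% and 22 CpGs for all promoters. The CpG count relative to that expected from base composition had a median of 0.77 at 24 h only, 0.323 in control only and 0.763 over all. Of promoters with at least 65% GC, 3.82% met a 24 h region (258 of 6754, exact 95% interval 3.38 to 4.3) and 0.666% a control region (45, interval 0.486 to 0.891). Below 55% GC the order was the other way, 0.895% at 24 h (0.634 to 1.23) and 2.54% in control (2.09 to 3.06). Between 55% and 65% GC the shares were 2.35% and 4.97%.

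**Figure D1:**
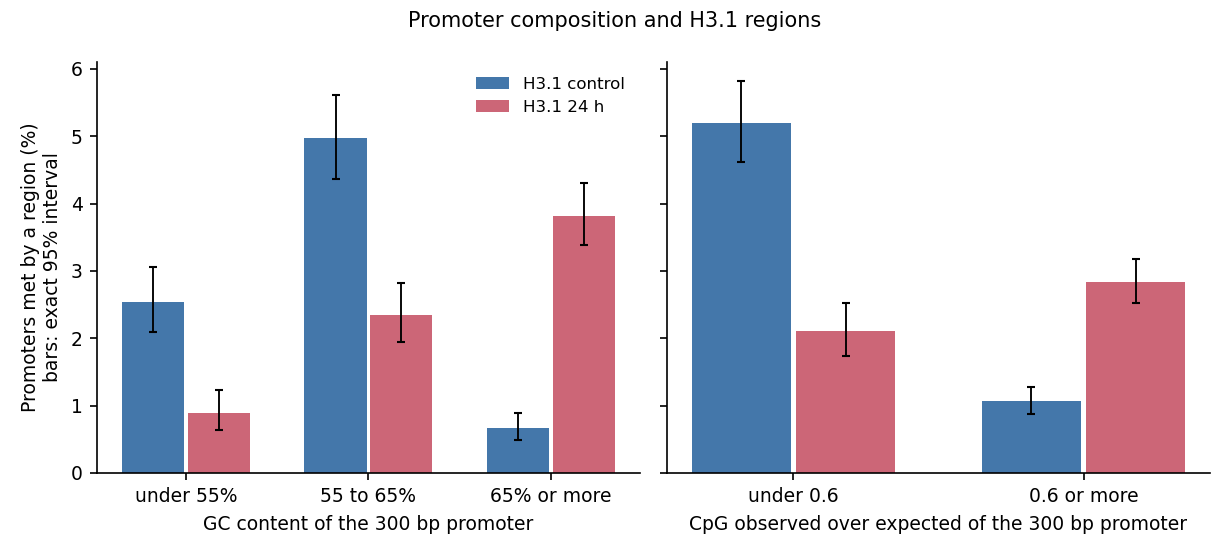
Share of promoters met by an H3.1 region, in percent on the vertical axis, by GC content (left) and by CpG observed over expected (right) of the 300 bp promoter, in control and 24 h cells; error bars are exact 95% intervals for counting error. At 65% GC or more the 24 h bar stands at 3.82% and the control bar at 0.666%, and under 55% the control bar is the higher one.

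Input tags in the regions at promoters also differed, but the lists had 7 promoters in common, so these are mostly different places. The tags are raw counts, not put at equal depth, in regions called against the input. Regions at promoters had a mean of 2.82 input tags in control and 5.28 at 24 h, against 2.56 and 4.22 in regions elsewhere, and median ChIP tags of 18 and 22. The part of library composition in this difference was not tested. The other lists are given as values: the share of covered promoters with at least 65% GC was 11.5% for H3.1 control, 58.2% after 4 h of D-alanine and 63.1% after 24 h, and for H3.3 56.8%, 52% and 8.03% in the same order. H3.1 control and H3.3 at 24 h are the low ones. The other 4 values lie above 50%, but that of H3.3 at 4 h rests on 13 of 25 promoters (exact interval 31.3 to 72.2). The value of H3.1 at 4 h rests on 71 of 122 (48.9 to 67.1), and both of these intervals reach below 50%. Over all promoters, 6754 of 15812 had at least 65% GC.

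Short letter patterns were counted in the promoters on both strands as a description. GGGCGG, the core of the GC box, was in 73.1% of promoters met at 24 h only, 36.1% of those met in control only and 58.5% of all. TGACTCA or its reverse complement TGAGTCA, the AP-1 consensus, was in 2.99%, 8.05% and 3.67% in the same order, and TATAAA in 5.47%, 11.4% and 9.64%. CACGTG, the E-box of MYC and USF proteins, was in 10.4%, 5.71% and 8.87%. TGACNNNGC, from the antioxidant response element, was in 11.9%, 13% and 14.3%. Within GC-rich sequence GGGCGG is frequent by composition, and none of these letters shows that a factor was bound.

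Around gene starts the gained regions formed a peak and the lost ones did not. Of gained regions, 9.89% lay within 2 kb of a gene start (1255 of 12693, exact 95% interval 9.37 to 10.4), against 4.44% of lost (4.25 to 4.63) and 5.11% of kept regions (3.78 to 6.74). Counted over whole lists, untreated cells had 8.12% of H3.3 regions near a start but 4.45% of H3.1 regions. By 24 h the order was reversed, with H3.1 at 9.55% and H3.3 at 4.21%. After 4 h the H3.1 share was 6.4% and the H3.3 share 5.06%. A high share near starts was thus not confined to H3.1 at 24 h, and its cause was not tested. In the 500 bp just inside the start there were 26.2 gained region midpoints per 1000 regions, and 14.3 in the 500 bp just before it. Lost regions had 4.99 and 4.4 there, close to their level over the whole 20 kb around the start. Among regions with a fold of at least 8 the shares within 2 kb of a start were closer, 4.98% of gained and 3.79% of lost regions. At the far end of genes the classes were closer, with 5.81% of gained, 4.72% of lost and 6.64% of kept regions. Away from both ends, inside gene bodies, lay 45.4% of gained, 48.7% of lost and 51.4% of kept regions. Outside genes and their 2 kb were 34.2%, 39.3% and 33.1%.

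**Figure D2:**
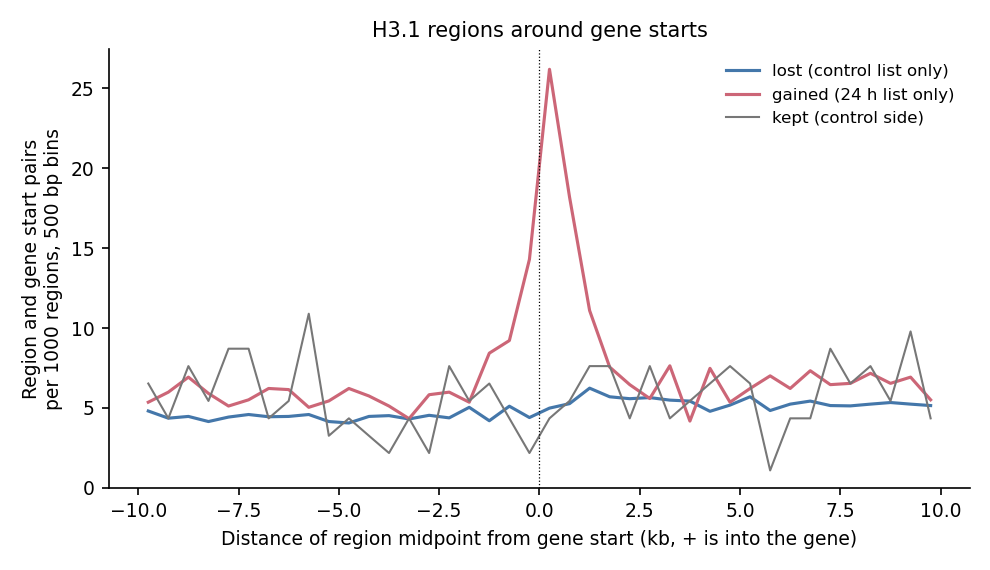
Region midpoints by distance from a gene start in kb, positive into the gene, as region and gene start pairs per 1000 regions in 500 bp bins, for lost, gained and kept regions. Gained regions reach 26.2 per 1000 just inside the start, while lost regions stay near 5 across the window.

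Kept regions were few. In the control list 919 of 44966 were kept (2.04%, exact 95% interval 1.91 to 2.18) and 44047 were lost (98%). In the 24 h list 918 of 13611 were kept (6.74%, 6.33 to 7.18) and 12693 were gained (93.3%). Kept pairs shared a median of 254 bp, with 94 of 919 pairs sharing at least 500 bp and 2 having the same borders. Of the pairs, 636 met none of the other 4 lists and 0 were in all 6. At genes, 616 pairs touched 581 protein-coding genes.

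Tag levels of the kept pairs scattered around equality while the fold over input was more often the lower at 24 h. Normalised tags were higher at 24 h in 509 pairs and lower in 401, with a median log2 ratio of 0.06. The 24 h region had at least 2 times the control tags in 73 pairs and at most 0.5 times in 77. The fold was lower at 24 h in 597 pairs and higher in 321. Kept regions had a mean of 3.3 raw input tags in control and 4.29 at 24 h. These counts were not put at equal depth, and the 24 h input was the deeper one. Median folds were 5.51 and 4.66 for kept regions, 6.21 for lost and 4.74 for gained ones. Of lost regions, 8.32% had 0 input tags, against 0.638% of gained, and their folds are then set by the 0.5 that the authors' files carry in place of 0.

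**Figure D3:**
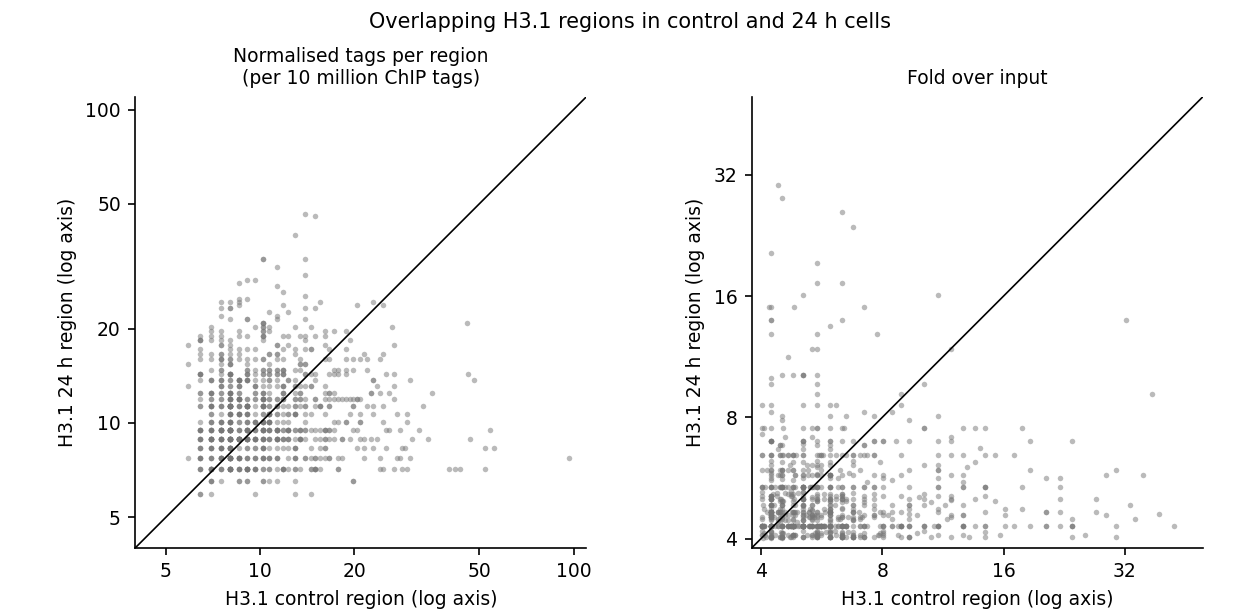
Each point is 1 of 919 overlapping pairs, with the control region on the horizontal and the 24 h region on the vertical log axis, for normalised tags (left, tags per 10000000) and fold over input (right); the line marks equality. Tags scatter on both sides of the line, 509 pairs above and 401 below, and 597 pairs have the lower fold at 24 h.

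Only kept pairs in or within 2 kb of a protein-coding gene were ranked here, 616 of 919. Those that ranked best in both lists were at genes of varied function. The first was in MEGF6, an EGF-repeat protein, at chr1:3568137-3568637 in control and chr1:3567671-3568171 at 24 h, sharing 34 bp. It had 13.9 normalised tags and a fold of 4.41 (1.66 to 14.7) in control, and 19 tags and 4.3 (1.94 to 10.8) at 24 h. In WIPI2, a phosphoinositide-binding autophagy protein, control had 13.9 tags and 24 h 25.5 over 214 shared bp (chr7:5230261-5231174 for both regions together). At WDR62, a spindle pole protein whose loss causes microcephaly, the pair (chr19:36104530-36105555 together) shared 492 bp with 13.9 tags in control and 29.7 at 24 h. NEU4, a sialidase, had 11.3 and 27.3 tags over 59 shared bp within 2 kb of a gene end. SLC26A11, an anion transporter, had 13.9 and 46.3, the 24 h region there being 2127 bp long against 500 bp. The other 2 named here went the other way: SH2B2, an adaptor of insulin signalling, had 20.4 tags in control and 11.9 at 24 h, and the region shared by FLRT1 and MACROD1, an ADP-ribose hydrolase, had 26.8 and 14.3. The fold intervals of the 2 sides overlap in each of the pairs named here.

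The remaining 5 were at MUC6, a gel-forming stomach mucin, KLHL29, TCERG1L, CNN1, the smooth-muscle calponin, and the neighbours GPR153 and HES3, the latter a repressor of the HES family. MUC6 had 13.4 tags in control and 16 at 24 h, sharing 451 bp, and CNN1 12.9 and 13.7, sharing 445 bp. KLHL29 had 11.8 and 12.5, GPR153 and HES3 11.8 and 14.8, and TCERG1L 13.9 and 23.2. None of the 12 pairs was met by any other list of the series, as were 636 of all 919 pairs.

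The largest shared stretch was 859 bp outside protein-coding genes on chromosome 17 (chr17:21747380-21748965 together), with 23 tags in control and 11.3 at 24 h. At ADCY3, an adenylate cyclase, the shared stretch was 728 bp with 26.8 and 11.9 tags, and H3.3 at 4 h also had a region. At PHF2, a demethylase of methylated H3 lysine, and LOC124902215 it was 687 bp, with 16.1 and 16 tags. The folds there were 5.08 (1.95 to 16.8) and 4.84 (1.96 to 14.3). That pair lay within 2 kb of a gene start, and which gene the start belongs to was not resolved. PRDM16, a zinc-finger regulator of brown fat and blood stem cells, shared 671 bp with 11.3 and 13.1 tags and had an H3.3 control region, and IL2RB, a chain of the interleukin-2 receptor, shared 633 bp with 24.1 and 12.5 tags and had an H3.3 region at 24 h. A further pair on chromosome 12 outside genes shared 678 bp with 9.65 and 10.7 tags. At the border of the overlap rule, a pair in DRAXIN, an axon guidance gene, shared 1 bp, and 2 pairs outside genes shared 2 bp. The nearest pairs not counted as shared abutted with a gap of 0 bp, on chromosomes 22, 3 and 9, with 7.5, 6.97 and 6.43 tags in control and 15.4, 10.1 and 7.72 at 24 h.

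Among lost regions in or within 2 kb of a protein-coding gene, the highest-scoring were at genes of varied function. CAMK2B, a calcium and calmodulin-dependent kinase, had 28.9 tags at a fold of 5.08 (2.49 to 11.7) at chr7:44216354-44216984. That region lay within 2 kb of a gene end and 11634 bp from the nearest 24 h region. ELFN1, a synaptic adhesion protein, had 30 tags at 5.93 (2.81 to 14.4) at chr7:1671519-1672019, and a 24 h region lay 938 bp away. AQP1, a water channel, had 24.7 tags within 2 kb of its gene start (chr7:30913497-30913997) and no 24 h region within 162135 bp. WNT3A, a canonical Wnt ligand, had 19.8 tags at chr1:228009970-228010470, with the nearest 24 h region 15575 bp off. SLC60A1 had 53.6 tags over 1764 bp. ADAMTS2, the procollagen N-proteinase, had 37.5 tags, HECW1, a ubiquitin ligase, 26.8, SUSD4, a complement regulator, 23.6, LILRB5, of an immunoglobulin-like receptor family whose paralogs share sequence, 23, GPR37L1, an orphan receptor, 22.5, and RECQL5, a helicase, 21.4. Of these, SUSD4, LILRB5 and SLC60A1 met a region of H3.3 at 24 h, and no region named here met H3.1 at 4 h. Of all lost regions, 34.1% met H3.3 at 24 h and 1.46% met H3.1 at 4 h. At 8 of the genes the 24 h list had another region in the same gene window. Over all genes, 3844 of the 8821 with a control region also had a 24 h region.

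The highest-scoring gained regions at protein-coding genes were, with 1 exception, in genes that also held a control region. Over all genes, 3844 of the 5658 with a 24 h region also held a control region. RADIL, a Rap effector in adhesion, led with 36.2 tags and a fold of 6.56 (3.34 to 14.4) at chr7:4833882-4834382. CD247, a signalling chain of the T cell receptor, had 33.9 tags at 4.72 (2.55 to 9.39) at chr1:167455083-167455583, and PLEKHA6, a junction-associated protein, the same tags and fold at chr1:204327301-204327801. MICALL2, a junction trafficking protein, had 34.4 tags at chr7:1448493-1448993 and was the only gene named here with no control region. FAM20C, the secretory pathway kinase, had 41 tags, TSNARE1 45.7, GALNT2, which starts mucin-type O-glycans, 33.9, PTP4A3, a phosphatase, 33.3, COQ8A, of coenzyme Q synthesis, 29.7, CYB5R1 34.4, and ADCY7, an adenylate cyclase, 30.3. Control regions lay close to several: 232 bp away at ADCY7, 310 bp at GALNT2 and 751 bp at PLEKHA6. None of these gained regions met any of the other 4 lists, beside 14% of all gained regions (1781 of 12693) that met at least 1 of them. The fold intervals of the lost and gained regions named here overlap, from 1.99 to 53 among the lost and 2.28 to 14.4 among the gained.

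Gained regions were often near control regions without touching them. The median distance from a gained region to the nearest control region was 7.86 kb, with 13.6% within 1 kb and 54.8% within 10 kb. From a lost region to the nearest 24 h region the median was 30.3 kb, with 4.3% within 1 kb and 26.1% within 10 kb. The lists differ in length, and a longer list lies nearer to any point.

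A gene counted as in a list where a region touched it or came within 2 kb of either of its ends. Of 19821 protein-coding genes, 3844 (19.4%) were in both lists, 4977 (25.1%) in the control list only, 1814 (9.15%) in the 24 h list only and 9186 (46.3%) in neither. The order of the classes followed list length: with the control list held to its 13611 highest-scoring regions, 2082 genes were control only, 3357 were 24 h only and 2301 in both. Among the genes in both lists, 576 of the 3844 (15%) had an overlapping pair. A gene window is far wider than a region, so sharing a gene more often than a place follows from the definitions. In the other 3268 genes the nearest control and 24 h regions were a median of 3.27 kb apart, within 1 kb in 841 and beyond 10 kb in 849. Gene length moved with the class. Genes in both had a median length of 48.7 kb, control only 25.5 kb, 24 h only 24.7 kb and neither 17.4 kb. From the shortest to the longest of 5 equal groups of genes, the share in both went from 6.25% to 34%, while 24 h only stayed between 8.2% and 10.5%.

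Several long genes on chromosomes 1, 5 and 8 lost every region. Per control region, the 24 h list had 0.208, 0.218 and 0.243 regions on these chromosomes and 0.216 on chromosome 7. On the other chromosomes this ratio was 0.264 to 0.491. Whether these genes differ from the rest of their chromosomes was not tested. KCNIP1, a potassium channel interacting protein, had 41 control regions and 0 at 24 h. NFASC, the axonal adhesion protein neurofascin, had 33, NAV1, a neuron navigator, 32, ST3GAL1, a sialyltransferase, and ZFAT, a zinc-finger protein, 22 each, and ITPKB, an inositol trisphosphate kinase, 21, all with 0 at 24 h. H3.1 at 4 h had 0 or 1 region in each of them. H3.3 at 24 h had 67 in KCNIP1, 49 in NFASC, 69 in NAV1, 30 in ST3GAL1, 40 in ZFAT and 25 in ITPKB, and H3.3 control 0 to 2. The highest normalised tag count among their control regions was 69.1, in NAV1, and 53.6 in KCNIP1.

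The genes with most regions at 24 h and none in control were shorter. NOTCH1, the receptor of the Notch pathway, had 10, LAMA5, a basement membrane laminin, and GPSM1, a G protein modulator, 7 each, SBNO2 6, and PLXNB2, a semaphorin receptor, and TMEM259 5 each. NOTCH1's best-scoring region, at chr9:136544809-136545517, had 27.9 tags at a fold of 4.6 (2.35 to 9.83) and its midpoint 885 bp inside the gene start. H3.3 of control cells had 4 regions in NOTCH1, 7 in LAMA5, 3 in GPSM1, 6 in SBNO2, 4 in PLXNB2 and 3 in TMEM259, and H3.3 at 24 h had 0 in all 6. H3.1 at 4 h had 2, 1, 3, 2, 0 and 1 in the same order.

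Genes with most overlapping pairs were large and carried many regions in both H3.1 lists compared. CDH4, R-cadherin, had 75 control and 33 regions at 24 h with 7 pairs, PTPRN2, a phosphatase-like protein of secretory granules, 106 and 40 with 6, and PRDM16 65 and 26 with 5. DLGAP2, a postsynaptic scaffold, had 88 and 27 with 5, ITPK1, an inositol kinase, 25 and 9 with 5, and COL5A1, a fibrillar collagen chain, 35 and 16 with 4. Each of these except ITPK1 also had a region in all 4 other lists, and ITPK1 had none in H3.1 at 4 h.

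Over 1 Mb windows the counts moved together but with 2 kinds of exception. In 2792 windows with a region in either list, 2135 had more control and 418 more 24 h regions, and the Spearman correlation of the counts was 0.69, given as a description because both follow gene density (0.57 for control, 0.55 for 24 h). The window at 201 to 202 Mb of chromosome 1, which holds CACNA1S, the muscle troponin genes TNNT2 and TNNI1, and NAV1, had 134 control regions and 1 at 24 h. The one at 204 to 205 Mb, with SOX13, MDM4 and NFASC, had 125 and 2, and the next with CNTN2 and ELK4 had 115 and 3. The window at 141 to 142 Mb of chromosome 8, with PTK2 and PTP4A3, had the most control regions, 150, and 22 at 24 h. The window at 150 to 151 Mb of chromosome 5, with CSF1R, PDGFRB and CD74, had 120 and 7. H3.3 at 24 h had 216, 204, 168 and 154 regions in the windows at 201, 204 and 205 Mb of chromosome 1 and 150 Mb of chromosome 5, and H3.3 control 0, 0, 1 and 3. More regions at 24 h were found at 0 to 1 Mb of chromosome 19, with BSG, PTBP1 and ELANE (23 in control, 50 at 24 h), at 1 to 2 Mb of chromosome 1, with AGRN, ISG15 and DVL1 (29 and 52), and at 136 to 137 Mb of chromosome 9, with NOTCH1 and LHX3 (55 and 78). Within 2 Mb of a chromosome's first base or of its largest coordinate in the files lay 16.6% of gained, 16.3% of kept and 8.5% of lost regions.

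**Figure D4:**
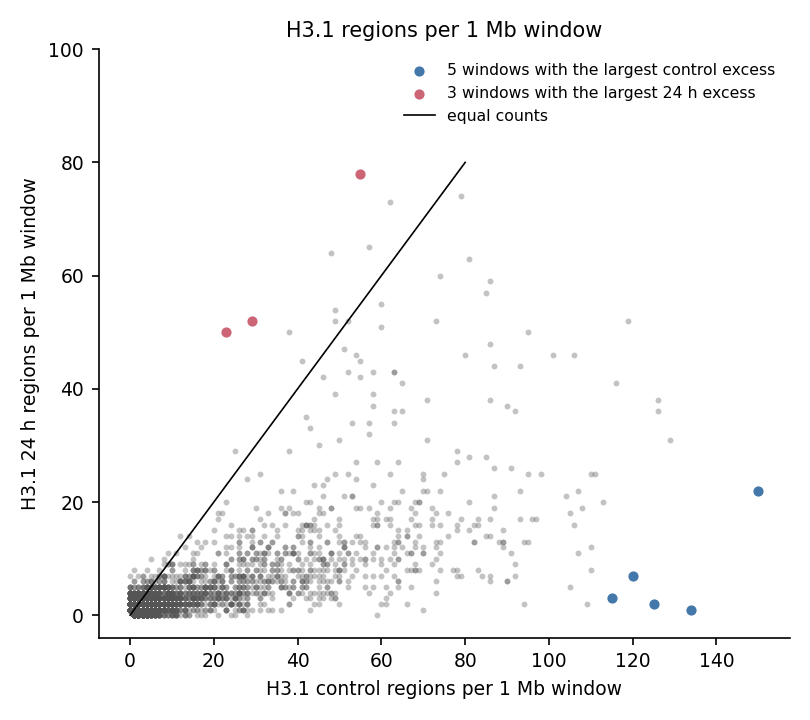
H3.1 regions per 1 Mb window in control (horizontal) and 24 h cells (vertical), 1 point per window, with the line of equal counts. Blue points are the 5 windows with the largest excess in control, such as 134 against 1 on chromosome 1, and red points the 3 with the largest excess at 24 h, led by 50 against 23 on chromosome 19.

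Gene lists are given by their counts beside all genes. Of all genes, 25.1% were in the control list only, 9.15% in the 24 h list only and 19.4% in both. Shares were not adjusted for chromosome. Several control only genes named below lie on chromosomes 1, 5, 7 and 8, which had the fewest 24 h regions per control region. Of 48 genes of EGF, Src and MAPK signalling, 10 (20.8%) were control only, 9 (18.8%) 24 h only and 11 (22.9%) both. The 24 h only members named first were picked by score. JUN, a subunit of AP-1, had 29.7 tags at a fold of 4.14 (2.21 to 8.3) at chr1:58783045-58783672, 688 bp inside its start. EGR1, a growth-factor induced zinc-finger factor, had 18.4 tags at 5.56 (2.28 to 16.3), 630 bp inside its start, FOSL1, another AP-1 subunit, 18.4, and DUSP4, a MAP kinase phosphatase, 20.8. Control only members picked the same way were DUSP2 with 15 tags, FYN with 8.04, ARAF with 11.8 and SPRY4 with 8.58. EGFR, the receptor of the EGF in the medium, had 29 control regions and 1 at 24 h, and SRC, the cellular kin of v-Src, 3 and 1.

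Of 54 Wnt and Notch genes, 13 (24.1%) were control only, 10 (18.5%) 24 h only and 16 (29.6%) both. The Wnt ligands WNT3A, with 8 control regions, and WNT9A and WNT11, with 5 each, had none at 24 h. The nuclear effector TCF7, with 8, also had none. WNT5A, another Wnt ligand, had 1 control region and 2 at 24 h. The receptor NOTCH1 and the ligands DLL1 and DLL3 had regions at 24 h only, as had FZD7, a Wnt receptor, with 16.6 tags. JAG2, another Notch ligand, had 1 control region and 3 at 24 h, AXIN1, of the destruction complex, 3 and 6, and LRP5, a Wnt co-receptor, 11 and 6. Of 50 homeobox and developmental regulators 21 (42%) were in both lists, 9 (18%) control only and 5 (10%) 24 h only. An overlapping pair was in 7 of them, beside 576 of 19821 over all genes. PAX7 had 15 control regions and EN1 3, with none at 24 h, and NKX2-5 and DLX5 1 region each at 24 h only. Of 73 potassium channel genes 27 (37%) were in both, among them KCNQ1 with 37 and 21 regions, KCNK9 with 17 and 3 and KCNT1 with 11 and 12.

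Of 43 antioxidant and NRF2 genes, 14 (32.6%) were control only, 6 (14%) 24 h only and 4 (9.3%) both. None had an overlapping pair, as in the DNA repair and drug efflux lists, beside 576 of 19821 over all genes. SQSTM1, the autophagy adaptor p62, and TKT, of the pentose phosphate path, had 5 control regions each and none at 24 h, as had GPX3, a secreted glutathione peroxidase, with 3. At 24 h only, GPX4, which reduces lipid peroxides, had 23.8 tags at 4.3 (2.12 to 9.65), TXN, thioredoxin, 19.6 at 4.44 (2.01 to 11.1), GPX1 11.3 at 4.09 (1.48 to 14), and MAFK, a small MAF partner of NRF2, 29.7 at 4.89 (2.51 to 10.4). The GPX4 and TXN midpoints were 1621 bp and 1095 bp inside the gene start, and that of GPX1 468 bp. KEAP1, the NRF2 sensor, had 1 region in each list at different places. Of 45 oxidative DNA damage and repair genes, 16 (35.6%) were control only, 8 (17.8%) 24 h only and 3 (6.67%) both. PARP1, the nick sensor, and MUTYH, which removes adenine opposite oxidised guanine, had 3 control regions each and none at 24 h, and NTHL1, UNG, GADD45A and CDKN1A 1 region at 24 h only, the last with 13.1 tags 1146 bp inside its start.

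Of 37 drug efflux and resistance genes, 10 (27%) were control only, 8 (21.6%) 24 h only and 6 (16.2%) both. ABCC4, an organic anion pump, had 28.5 tags at 4.3 (2.25 to 8.9) over its gene start (chr13:95300800-95301541) at 24 h only, and TYMS, thymidylate synthase, 20.2 tags 339 bp inside its start. ABCC1 had 7 control regions and 2 at 24 h, and BCL2, the apoptosis inhibitor, 3 and 0. Of 45 H3 chaperones and chromatin factors, 13 (28.9%) were control only, 6 (13.3%) 24 h only and 8 (17.8%) both. CHAF1A, the large subunit of CAF-1, had 2 control regions and SUV39H1, an H3 lysine methyltransferase, 3, with none at 24 h. The Polycomb genes CBX8 and CBX2 had 2 and 1 at 24 h only and CBX7 2 in control only. DNMT3A, a DNA methyltransferase, had 8 and 10 regions with 1 overlapping pair.

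Of 44 epithelial and basal mammary genes, 15 (34.1%) were control only, 3 (6.82%) 24 h only and 9 (20.5%) both. ELF3 had 25.2 tags at 5.69 (2.55 to 14.9), 494 bp inside its start, in control only, and GRHL2, a keeper of the epithelial state, and JUP, plakoglobin, 5 control regions each. KRT5, a basal keratin, and KLF5 had 1 region at 24 h only, with 8.31 and 9.5 tags. Of 40 TGF-beta and mesenchymal genes, 14 (35%) were control only, 2 (5%) 24 h only and 11 (27.5%) both. PDGFRB had 10 control regions and none at 24 h, TWIST1 1, and SPARC 2 of up to 33.8 tags. MMP9 with 22 tags and COL3A1 with 10.7 were the 2 genes at 24 h only. Cytosolic ribosomal protein genes, which are short, held few regions: 12 of 75 (16%) control only, 5 (6.67%) 24 h only and 2 (2.67%) both. Of 30 lymphoid and neuronal markers, cell types not in the culture, 11 (36.7%) were control only, 1 (3.33%, NEFM) 24 h only and 6 (20%) both, among them RBFOX3 with 98 and 16 regions.

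**Figure D5:**
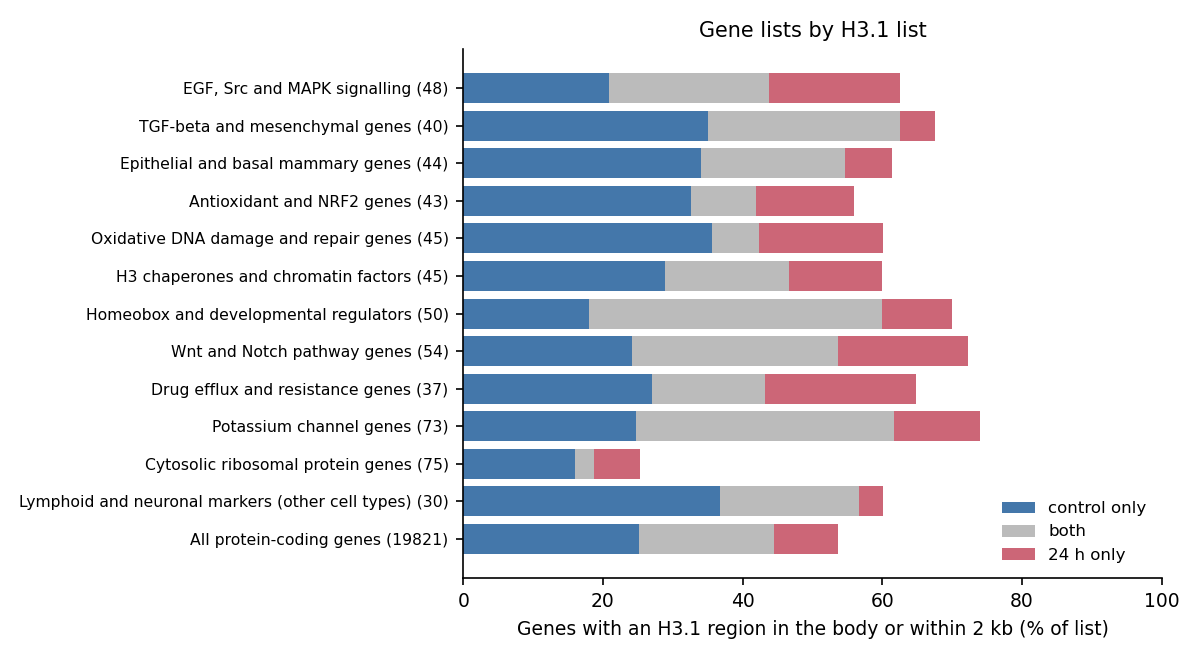
Share of each gene list with an H3.1 region in the gene body or within 2 kb, in percent, split into control only, both and 24 h only; the number of genes matched stands behind each name. The 24 h only part is 18.8% for EGF, Src and MAPK signalling and 5% for TGF-beta and mesenchymal genes, beside 9.15% for all protein-coding genes.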

How the data were processed

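Per the submitters' processing notes, cutadapt 3.7, Bowtie2 2.4.1, HOMER 4.11.1 and build hg38 were used on single-end reads of 50 bases. Per the file headers, the authors called regions per ChIP library, relative to the matching input, in HOMER's histone style, at 500 bp peak size, a fold of at least 4 over input and a p-value of 1e-04, with at most 1 tag per bp. The deposited signal is tags per 10000000 ChIP tags, the deposited score is HOMER's region score, and the deposited fold is a ratio at equal depth. In the control list the authors scaled ChIP tags to the input and in the 24 h list the input to the ChIP library; raw tags were recovered from both. Overlaps, fold intervals (conditional binomial) and share intervals (Clopper-Pearson, 95%) were computed with Python 3.11.15, pandas 2.3.3 and SciPy 1.17.1 and tested on simulated data; intervals cover counting error only and ignore that regions were selected on these tags.

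Genes came from RefSeq (GRCh38.p14): 19974 protein-coding entries, of which 153 were left out because the table's row order placed them on other contigs. Strand and promoters came from RefSeq for 15812 genes. Whole-region sequence was not used here. Of 585 gene list entries 584 matched; SPT2 did not. The members, gene lists and named genes were chosen with earlier results of these data known. Named genes were the 12 kept regions at genes of best worse rank by score and the 6 longest shared pairs. The 12 top-scoring lost and gained regions at genes, 1 a gene, were also named. So were the 6 genes with most regions in 1 list or most pairs, and up to 4 members per class of each list. A few genes that these rules name are not reported here. The windows named, the printed promoters and the letter patterns were chosen after values were seen. Alternatives changed the overlap, fold, list length, gene window and chromosomes.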

Additional observations from a re-analysis of the deposited data

Results flagged for a closer look

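The share of covered promoters with at least 65% GC went opposite ways in H3.1 and H3.3 between control and 24 h, from 11.5% to 63.1% for H3.1 and from 56.8% to 8.03% for H3.3. With 1 library per group this difference was not tested. The 2 low shares belong to H3.1 of control cells and H3.3 at 24 h, and whether library labels were exchanged was not tested.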

How the results depend on the processing

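No paired analysis was possible because every group has 1 sample. Kept control regions numbered 320 at 50% reciprocal overlap, 2813 where regions within 1 kb counted as shared, 68 at a fold of at least 6, 9 at a fold of at least 8 and 325 with the control list held to its highest scores at the 24 h length. Lost regions numbered 22750, 15484 and 13286 under the last 3, and gained ones 2844 and 1085 at the 2 folds. Genes in both lists numbered 936 and 311 at the 2 folds and 2301 at equal length, control only genes 2082 at equal length, and 24 h only genes 719, 313 and 3357, so at equal list length 24 h only genes outnumbered control only genes. Fewer regions enter at the higher folds and at equal length.

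The share of regions near either gene end, for kept, lost and gained regions in that order, was 5.88%, 4.45% and 9.72% within 500 bp, 8.82%, 10.8% and 15.8% at a fold of at least 6, and 0%, 10.2% and 10.5% at a fold of at least 8. Near gene starts it was 1.47%, 4.13% and 7.49% at a fold of at least 6 and 0%, 3.79% and 4.98% at a fold of at least 8, and for lost regions 4.85% at equal length. The higher share of gained regions near gene starts is thus smaller among regions of high fold, and the cause was not tested; kept regions went from above to below lost ones at both folds, where the kept regions left there number 68 and 9.

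At 50% reciprocal overlap, kept, lost and gained regions were met by H3.1 at 4 h in 0.979%, 0.568% and 2.29%, by H3.3 control in 1.2%, 0.47% and 3.34%, by H3.3 at 4 h in 0.544%, 0.295% and 0.859% and by H3.3 at 24 h in 9.79%, 21.5% and 0.559%. At a fold of at least 6 these were 1.47%, 1.24% and 2.81%, then 1.47%, 0.967% and 4.71%, then 0% and 0.589% for kept and lost, and 38.5% and 3.8% for lost and gained by H3.3 at 24 h. The GC-rich share of covered promoters was 7.32% in control at a fold of at least 8, and at 24 h 58% and 75% at folds of at least 6 and 8. These GC settings, the gene start settings and the gene table with its alternate contigs were added after seeing the data. Of 86 alternative values 28 stayed within 1.5 times the count or inside the 95% interval of the share. Class medians of 17 to 19 ChIP tags and 2 to 4 input tags per region set the precision of each fold.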
